A study of Mus musculus with 12 samples.

Results

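The heat shock protein genes followed here are 10 of the 57180 genes in the deposited tables, taken by symbol: the transcription factor gene Hsf1, the HSP70 genes Hspa1a, Hspa1b and Hspa8, the HSP70 cochaperone genes Dnajb1 and Hsph1, the HSP90 gene Hsp90aa1, the small heat shock protein gene Hspb1 and the mitochondrial chaperonin genes Hspd1 and Hspe1. All 10 were found once, and all 10 were among the 19350 genes that passed the filter on low counts. The filter asked for at least 5 reads, at the depth of a median library, in at least 3 livers. RNA-seq was done on whole livers of 12 mice in a study of gene therapy for Cockayne syndrome, a disorder of transcription-coupled DNA repair, with 3 females and 3 males of each of the genotypes Het and KO. The question of the comparison was how the livers of treated diseased mice differed from those of treated littermates.

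All 12 mice lacked Csa (Ercc8), and, as litters were injected whatever their genotype, all had received AAV9-CSA as newborns by injection into the brain ventricles. AAV9-CSA is a viral vector that carries human CSA under the ubiquitous chicken β-actin promoter. Het mice were Csa-/- with 1 working copy of Xpa, another DNA repair gene, and were age-matched littermates without signs of disease. KO mice are written as Csa-/- Xpa+/+ in the labels and in the RNA-seq methods, but the study describes its diseased mice as Csa-/- Xpa-/- (CX), taken at a humane endpoint. Xpa was measured at 3.10 to 6.34 CPM (counts scaled to a library of 1000000) in the 6 Het livers and 0.992 to 1.83 CPM in the 6 KO livers, which goes against Xpa+/+ in KO, so the groups are called KO and Het throughout. Ercc8 was measured at 5.10 to 8.68 CPM in Het and 14.8 to 34 CPM in KO, which does not check the Csa deletion, since the deleted part of the gene and any reads from the vector are not given. Genotype and reaching the endpoint cannot be told apart in this design, and the age of each mouse is not given in the labels.

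Library totals ran from 30044812 to 43634073 estimated counts, and replicates of a group differed by more than sampling noise (chi-square per degree of freedom, 86.8 to 226). All 8 hepatocyte markers were measured, and their summed level was 22200 to 46200 TPM (the same scale per transcript length) over the 12 livers. These are bulk samples, in which fewer cells of a type and less RNA per cell cannot be told apart. Changes are given as log2 fold changes of KO over Het from the quasi-likelihood test of edgeR, adjusted by Benjamini and Hochberg's method over all 19350 genes, and a gene is called when the adjusted p is under 0.05.

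Heat shock proteins are chaperones that hold, fold or untangle other proteins. HSF1 is the factor that switches many of them on when unfolded proteins build up, by binding heat shock elements, which are inverted repeats of the letters GAA in the promoter. HSP70 works in a cycle in which J-domain proteins such as DNAJB1 bring the client protein and exchange factors such as HSP110 (Hsph1) release it, HSP90 takes over clients that are nearly folded, small heat shock proteins such as HSPB1 hold unfolded ones without ATP, and HSP60 with HSP10 (Hspd1 and Hspe1) folds proteins inside mitochondria.

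The bases upstream of the start sites are shown first, since heat shock elements are what HSF1 binds. Windows of 250 bases before the canonical start site were read from the GRCm39 genome with GENCODE M39 start sites and searched on both strands for a 2-unit element, GAANNTTC or TTCNNGAA, and for a 3-unit element, GAANNTTCNNGAA or TTCNNGAANNTTC, where a 3-unit match always holds 2-unit matches. Of the 10 windows, 6 held a 2-unit element, against 12.3% of the windows of 21757 protein-coding genes, and the windows of Hspd1 and Hspe1 held a 3-unit element, against 0.349%. Neither element was in the windows of Hsf1, Hspa8, Dnajb1 and Hsp90aa1, which says nothing of other windows or of looser elements. The windows of the inducible HSP70 genes and of Hspb1, which hold no annotated exon, are printed 5′ to 3′ on the transcript strand with the matches in capitals, because the neighbours Hspa1a and Hspa1b are compared with each other below.
Hspa1a, chr17:35191133-35191382, minus strand: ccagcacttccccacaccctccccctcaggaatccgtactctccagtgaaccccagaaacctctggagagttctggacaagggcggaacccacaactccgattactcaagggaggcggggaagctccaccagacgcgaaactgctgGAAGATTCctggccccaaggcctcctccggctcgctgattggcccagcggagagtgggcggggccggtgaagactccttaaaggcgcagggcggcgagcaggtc
Hspa1b, chr17:35178215-35178464, minus strand: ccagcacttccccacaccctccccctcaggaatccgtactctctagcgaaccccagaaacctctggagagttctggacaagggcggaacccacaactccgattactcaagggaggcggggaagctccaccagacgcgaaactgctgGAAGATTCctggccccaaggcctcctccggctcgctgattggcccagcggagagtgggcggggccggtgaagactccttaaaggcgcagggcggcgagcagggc
Hspb1, chr5:135916510-135916759, plus strand: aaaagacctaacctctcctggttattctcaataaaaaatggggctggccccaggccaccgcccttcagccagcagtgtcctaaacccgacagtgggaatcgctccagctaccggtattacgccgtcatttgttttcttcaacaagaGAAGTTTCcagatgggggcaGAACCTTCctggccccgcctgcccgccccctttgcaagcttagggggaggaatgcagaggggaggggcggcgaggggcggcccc
The windows of Hspa1a and Hspa1b were the same at 247 of 250 positions, and in both the element began 104 bases before the start site. In Hspb1 the elements began 104 and 84 bases before it. Hspd1 and Hspe1 lie head to head with 107 bases between their canonical start sites, so the same run of 18 bases served as the match for both genes. Hsph1 held a single 2-unit match 28 bases before its start site. The 30 bases around these matches are as follows.
Hspd1, chr1:55127212-55127241, minus strand: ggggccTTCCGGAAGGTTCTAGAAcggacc
Hsph1, chr5:149559816-149559845, minus strand: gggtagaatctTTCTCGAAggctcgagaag

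**Figure D1:**
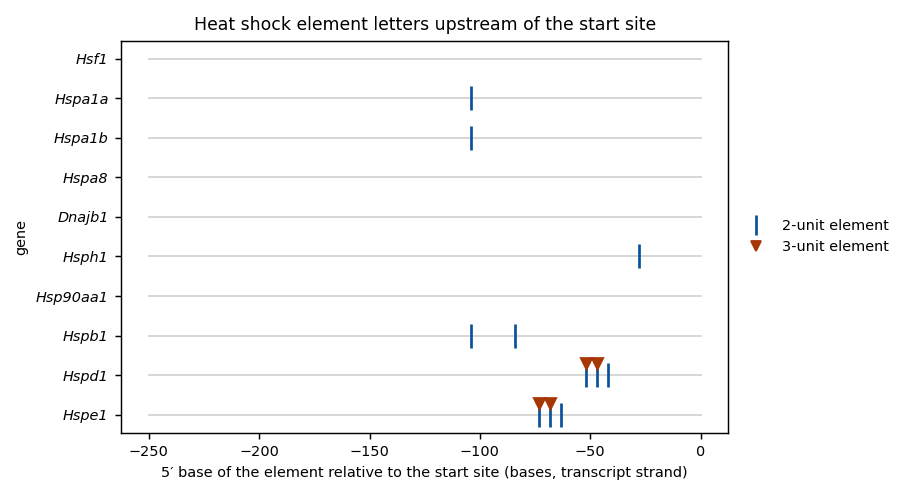
Positions of the heat shock element letters in the 250 bases before the start site of each of the 10 genes, with the distance from the start site in bases on the x axis, blue bars for 2-unit and brown triangles for 3-unit matches. Matches stand in 6 of the 10 windows, at 104 bases in both Hspa1a and Hspa1b, and overlap each other in Hspd1 and Hspe1.

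In KO livers 5 of the 10 genes were lower than in Het livers over both sexes: Hspa1b (19.3% of the Het level), Hspb1 (42.7%), Hsph1 (43.3%), Dnajb1 (59.7%) and Hsp90aa1 (69.3%). None was called higher by edgeR or DESeq2, and 0 were higher at an unadjusted p under 0.05. Of all genes tested, 10.2% were called lower and 12.2% higher in the same comparison. The 10 genes were chosen with earlier results of these data known, so the shares of all genes here are a description and not a test. The log2 fold change was below 0 in 9 of the 10, with a median of -0.413 beside 0.018 over all genes, and 7 of the 10 had an unadjusted p under 0.05, beside 36.1% of all genes tested. The genes not called by edgeR were Hspd1, Hspe1, Hspa8, Hspa1a and Hsf1, the gene of the factor itself.

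**Figure D2:**
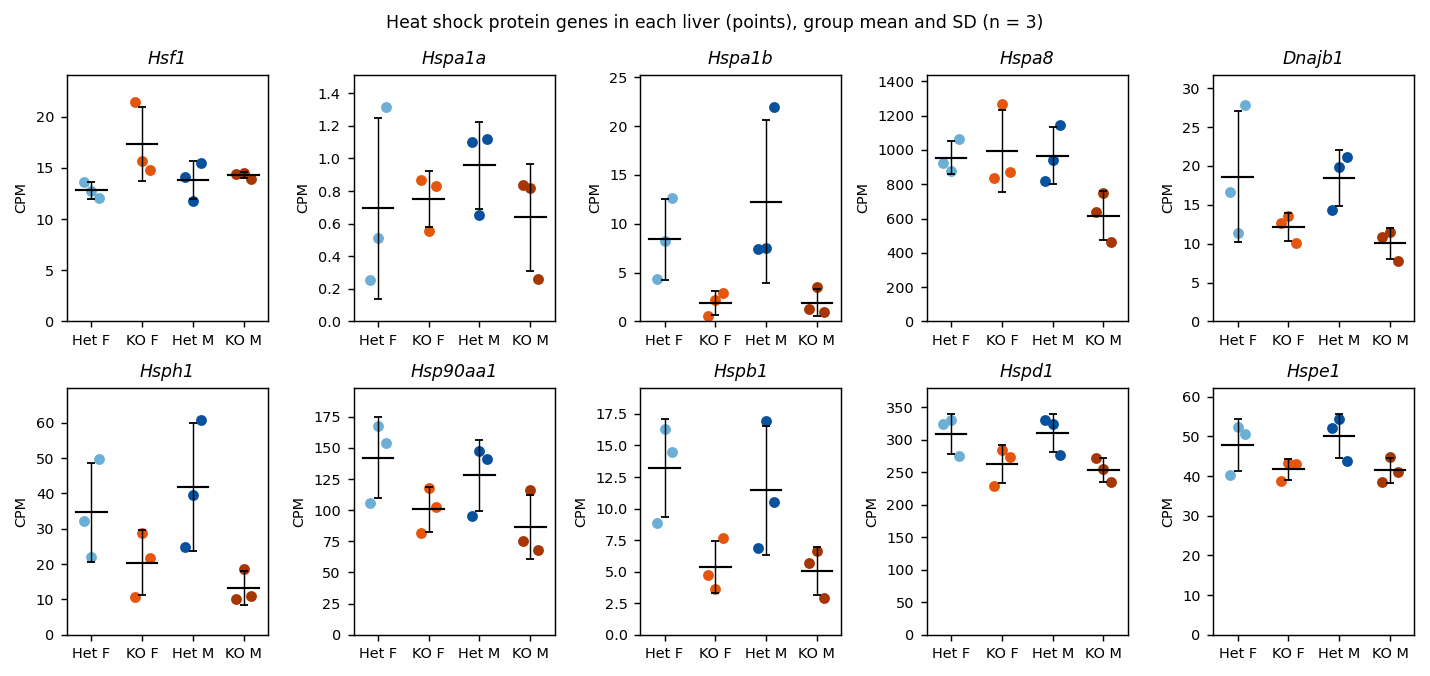
Level of each of the 10 genes in each liver in CPM (y axis, from 0), by group (x axis), with points for single livers, a horizontal bar for the mean and a vertical bar for the SD (n = 3). For Hspa1b the 6 KO livers lie at 0.558 to 3.53 CPM, all below the 6 Het livers at 4.37 to 21.9 CPM, and for Hspa1a the groups overlap.

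Hspa1b (ENSMUSG00000090877.4, chr17:35175412-35178214, minus strand) and Hspa1a (ENSMUSG00000091971.4, chr17:35188166-35191132, minus strand) encode the inducible HSP70 and lie 9951 bases apart. Hspa1b was measured at 4.37, 8.19 and 12.6 CPM in Het_F_111, Het_F_115 and Het_F_126 and at 7.37, 7.55 and 21.9 CPM in Het_M_119, Het_M_125 and Het_M_137. KO_F_108, KO_F_112 and KO_F_123 had 0.558, 2.20 and 2.95 CPM and KO_M_118, KO_M_122 and KO_M_136 had 1.29, 3.53 and 0.958 CPM. Every KO liver was below every Het liver, a separation found for 4.64% of all genes tested. The log2 fold change was -2.38 (SE 0.493, edgeR adjusted p = 0.0079), the largest fall among the 10 genes.

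Hspa1a was a low gene, with 8.55 to 61.3 estimated counts in a liver. Its level was 0.254, 0.510 and 1.32 CPM in Het females, 1.1, 0.651 and 1.12 CPM in Het males, 0.868, 0.557 and 0.831 CPM in KO females and 0.838, 0.816 and 0.261 CPM in KO males, in the same order of mice. The groups overlapped over most of their range, and the log2 fold change of -0.23 (95% confidence interval -1.01 to 0.556, adjusted p = 0.689) was not called. Hspa1a also shares its span with Gm20481, annotated on the opposite strand.

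The split of reads between the neighbours is uncertain, because 1069 of the 2653 windows of 1 read length (40.3%) of the Hspa1b transcript are present unchanged in the Hspa1a transcript. Their summed level does not depend on the split. It was 4.62, 8.70 and 14.0 CPM in Het females, 8.47, 8.20 and 23.0 CPM in Het males, 1.43, 2.76 and 3.78 CPM in KO females and 2.13, 4.34 and 1.22 CPM in KO males. All 6 KO livers were again below all 6 Het livers, although the highest KO liver (4.34 CPM) was close to the lowest Het liver (4.62 CPM). The sum had a log2 fold change of -2.05 (SE 0.421, edgeR adjusted p = 0.00723). Hspa1b held 86.9% to 95.1% of the sum in Het and 39.1% to 81.3% in KO, a shift in ratio that rests on the uncertain split.

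**Figure D3:**
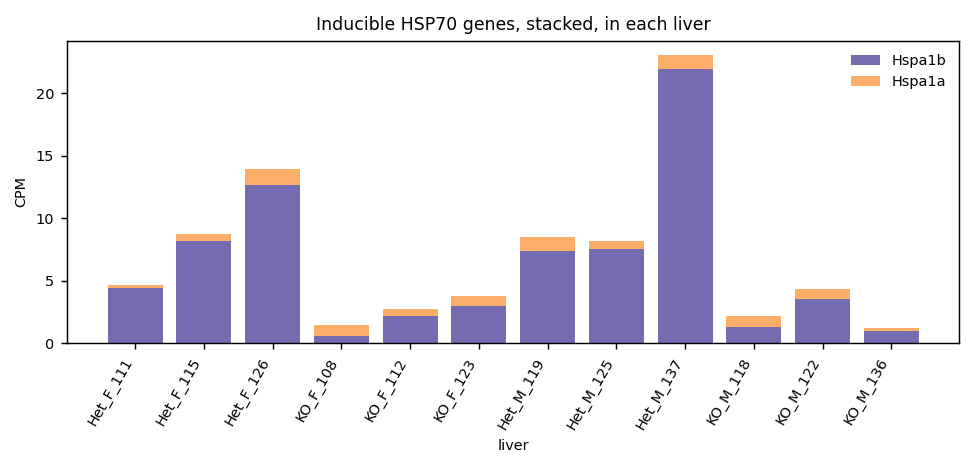
CPM of Hspa1b (purple) and Hspa1a (orange) stacked in each of the 12 livers (x axis), with the y axis from 0. The summed level runs from 4.62 to 23.0 CPM in Het and from 1.22 to 4.34 CPM in KO. The split between the genes is that of the authors' counting and is uncertain.

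Hspa8 (ENSMUSG00000015656.18, chr9:40711630-40731039, plus strand) encodes the constitutive HSP70, HSC70, and hosts the small nucleolar RNA genes Snord14c, Snord14d and Snord14e in its introns. It was measured at 922, 879 and 1062 CPM in Het_F_111, Het_F_115 and Het_F_126 and 817, 938 and 1146 CPM in Het_M_119, Het_M_125 and Het_M_137. KO_F_108, KO_F_112 and KO_F_123 had 837, 1268 and 870 CPM and KO_M_118, KO_M_122 and KO_M_136 had 640, 749 and 463 CPM. The KO males were all below the Het males, while KO_F_112 was the highest of the 12 livers. Over both sexes the log2 fold change was -0.30 (SE 0.154, adjusted p = 0.19).

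Among the cochaperones, Hsph1 (ENSMUSG00000029657.16, chr5:149537636-149560156, minus strand) encodes HSP110, a nucleotide exchange factor for HSP70. Its level was 32.1, 22.0 and 49.8 CPM in Het females, 24.9, 39.5 and 60.9 CPM in Het males, 10.6, 28.8 and 21.8 CPM in KO females and 10.3, 18.7 and 10.8 CPM in KO males. Only KO_F_112 was above the lowest Het liver. The log2 fold change was -1.21 (SE 0.314, edgeR adjusted p = 0.021).

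Dnajb1 (ENSMUSG00000005483.11, chr8:84334811-84339820, plus strand) encodes the J-domain protein HSP40. Its level was 16.6, 11.4 and 27.9 CPM in Het females, 14.3, 19.8 and 21.1 CPM in Het males, 12.7, 13.6 and 10.1 CPM in KO females and 10.8, 11.6 and 7.80 CPM in KO males. The ranges overlapped only through Het_F_115, and the other 5 Het livers were above every KO liver. The log2 fold change was -0.74 (SE 0.202, edgeR adjusted p = 0.0221).

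Hsp90aa1 (ENSMUSG00000021270.14, chr12:110656842-110669166, minus strand) encodes the inducible cytosolic HSP90. It was measured at 106, 167 and 154 CPM in Het females, 95.4, 147 and 141 CPM in Het males, 82.1, 118.1 and 102 CPM in KO females and 75.5, 116 and 68.1 CPM in KO males. The ranges overlapped, with 3 of the 6 KO livers below the lowest Het liver. Its log2 fold change of -0.53 (SE 0.175, edgeR adjusted p = 0.0477) was close to the threshold, and the call was lost without Het_F_115, Het_F_126, Het_M_125, Het_M_137, KO_F_108, KO_F_123, KO_M_118 or KO_M_136, with adjusted p up to 0.1.

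Hspb1 (ENSMUSG00000004951.11, chr5:135916760-135918417, plus strand) encodes HSP27 (HSP25 in the mouse), a small heat shock protein. Its level was 8.88, 16.3 and 14.5 CPM in Het females, 6.84, 17.0 and 10.6 CPM in Het males, 4.74, 3.65 and 7.70 CPM in KO females and 5.66, 6.62 and 2.93 CPM in KO males. The KO livers were below the Het livers within each sex, and across the sexes only KO_F_123 was above the lowest Het liver. The log2 fold change was -1.23 (SE 0.284, edgeR adjusted p = 0.0114).

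The mitochondrial pair moved less. Hspd1 (ENSMUSG00000025980.15, HSP60, chr1:55116989-55171038, minus strand) was measured at 274 to 330 CPM in Het and 229 to 284 CPM in KO, with a log2 fold change of -0.26 (SE 0.0978, edgeR adjusted p = 0.0738). Hspe1 (ENSMUSG00000073676.5, HSP10, chr1:55127260-55130476, plus strand) was measured at 40.3 to 54.4 CPM in Het and 38.6 to 44.8 CPM in KO, with a log2 fold change of -0.24 (SE 0.0931, edgeR adjusted p = 0.0893). Neither passed the test in edgeR, while 5 of 6 KO livers were below the lowest Het liver for Hspd1. DESeq2, which called 6 of the 10 genes and 5045 of all 19350, called Hspd1 lower (adjusted p = 0.0373). Without Het_F_111, edgeR called Hspe1 lower (adjusted p = 0.0415). Copies named after these genes took few of the reads, and copies under other names were not searched. The 7 named as Hspe1 pseudogenes or related sequences reached at most 16.6 counts together in a liver and the 5 of Hspd1 at most 173. The lowest counts of Hspe1 and Hspd1 themselves were 1250 and 7390.

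Hsf1 (ENSMUSG00000022556.12, chr15:76361558-76388138, plus strand), the gene of the factor that drives the response, was the only member with a positive log2 fold change over both sexes. It was measured at 13.7, 12.8 and 12.1 CPM in Het females, 14.1, 11.8 and 15.5 CPM in Het males, 21.4, 15.6 and 14.8 CPM in KO females and 14.4, 14.5 and 13.9 CPM in KO males. KO females were above Het females in all 3 livers, as for 15.8% of all genes, while in males the ranges overlapped. The log2 fold change of 0.24 (95% confidence interval -0.00193 to 0.479, edgeR adjusted p = 0.141) did not pass the test. Hsf1 overlaps the genes Bop1 and Dgat1 on the opposite strand, and its transcript level does not measure the activity of the protein.

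**Figure D4:**
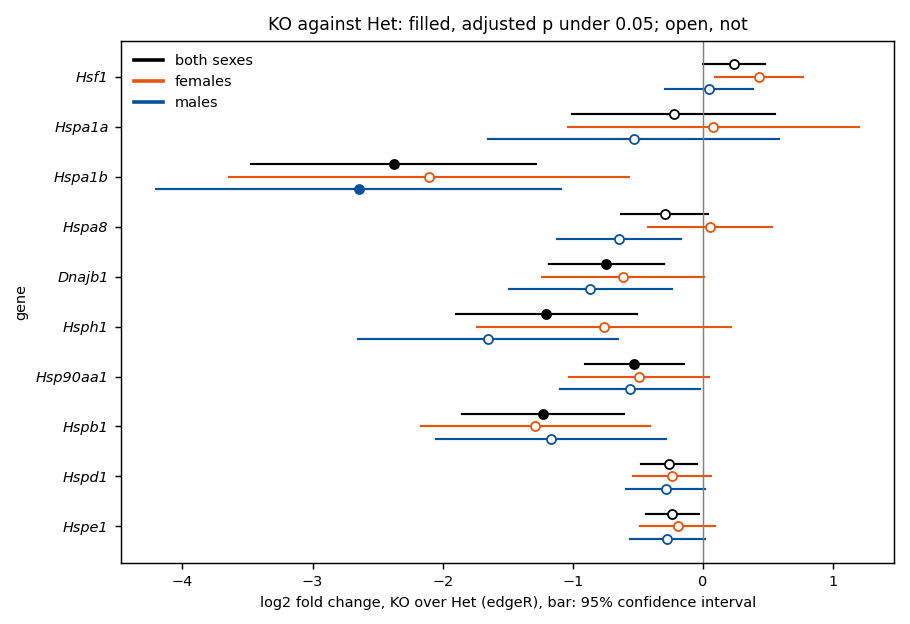
Log2 fold change of KO over Het (x axis) for each of the 10 genes over both sexes (black), in females (orange) and in males (blue), with bars for the 95% confidence interval and filled points for an adjusted p under 0.05. Filled points are Hspa1b, Hsph1, Dnajb1, Hsp90aa1 and Hspb1 over both sexes and Hspa1b in males.

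Within the females none of the 10 genes was called, beside 5.1% of all genes called lower. The smallest adjusted p in edgeR's test was 0.0605, for Hspb1, and 3 of the 10 had an unadjusted p under 0.05, beside 29.0% of all genes. DESeq2 called 2, Hspa1b and Hspb1, beside 3174 of all 19350 genes. Without Het_M_125, KO_F_123 or KO_M_136, Hspb1 was called, with an adjusted p down to 0.0343. Hspa1b had a log2 fold change of -2.11 (SE 0.693, edgeR adjusted p = 0.0756) and Hspb1 of -1.29 (SE 0.402), and for both the 3 KO females were below the 3 Het females, as for 14.7% of all genes. Hsf1 had a log2 fold change of 0.43 (SE 0.156, adjusted p = 0.0928).

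Within the males Hspa1b was called lower, with a log2 fold change of -2.65 (SE 0.703, edgeR adjusted p = 0.0472), beside 2.98% of all genes. Hsph1 followed at -1.65 (SE 0.45, adjusted p = 0.052). In edgeR's test 6 of the 10 had an unadjusted p under 0.05, beside 24.1% of all genes. The KO males were below the Het males for 6 of the 10 genes: Hspa1b, Hspa8, Dnajb1, Hsph1, Hspb1 and Hspd1. The same held for 15.4% of all genes. The call of Hspa1b was lost without Het_F_115, Het_M_119, Het_M_125, Het_M_137, KO_F_112, KO_F_123, KO_M_118 or KO_M_136, with adjusted p up to 0.152.

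The difference between the sexes in the KO effect was called for 0 of the 10 genes (0.0465% of all genes), and for 0 by DESeq2 (162 of all 19350 genes). Hspa8 had the smallest p: the log2 fold change in males minus that in females was -0.70 (95% confidence interval -1.38 to -0.0302, unadjusted p = 0.0419 and adjusted p = 0.521 in edgeR). It was the only member with an unadjusted p under 0.05 there, beside 9.28% of all genes. The interval for Hspa1b (-2.67 to 1.59) leaves room for large differences either way. That for Hsph1 (-2.26 to 0.486) leaves room for a large one only toward a deeper fall in males. Males against females over both genotypes gave 0 calls by edgeR, beside 1.02% of all genes, and 0 by DESeq2, beside 725 of all 19350 genes. In edgeR 0 members had an unadjusted p under 0.05 there, beside 13.8% of all genes.

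Per transcript length, Hspa8 was the most abundant member in Het livers, with a median of 447 TPM (328 to 532). Hspd1 followed at 95.5 TPM, Hspe1 at 54.5, Hsp90aa1 at 41.0, Hspb1 at 12.3, Hsph1 at 8.93, Hsf1 at 5.39, Dnajb1 at 4.55, Hspa1b at 2.13 and Hspa1a at 0.202 TPM. The ranges of neighbours in this order overlapped from Hspe1 to Hsp90aa1 and through the run from Hspb1 to Hspa1b, while Hspa8, Hspd1 and Hspa1a stood clear of their neighbours. Hspa1b, Hspb1, Hsph1 and Dnajb1, which had the largest falls, stood at 12.3 TPM or less, and edgeR did not call the 3 most abundant genes. Hsf1 and Hspa1a also stood at 12.3 TPM or less, and edgeR called neither.

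The livers also differed among themselves within a group. Het_F_126 and Het_M_137 had the highest levels of the 6 Het livers for Hspa1b, Hspa1a, Hsph1, Dnajb1 and Hspa8, and the lowest for Hspd1. KO_M_136 had the lowest level of the 12 livers for Hspa8, Dnajb1, Hsp90aa1 and Hspb1. Hspa1b spanned 5.02-fold among Het livers and 6.32-fold among KO livers, and Hspe1 only 1.35-fold and 1.16-fold.

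Pairs of members were correlated across the 6 livers of each genotype, females and males together, on the log2 CPM scale. In the exact permutation tests, 0 of the 90 correlations passed at an adjusted p under 0.05 by r or by rho, with 11 at an unadjusted p under 0.05 for r. The smallest p that 6 livers allow for rho is 0.00278. With 90 tests adjusted together, no single pair could pass alone by r or by rho, so the count of 0 does not show that the pairs are unrelated. The smallest adjusted p were 0.25 for r and 0.501 for rho. Of the 45 pairs, 29 had a positive r in Het (median 0.19) and 38 in KO (median 0.409). Hspa1a and Hspa1b had r = 0.765 in Het (rho = 0.714, exact permutation p = 0.0819 and 0.136, adjusted p = 0.41 and 0.605) and r = 0.233 in KO (rho = -0.257, exact permutation p = 0.7 and 0.658, adjusted p = 0.868 and 0.94). Without the 2 livers farthest from the median of Hspa1a these were 0.503 and -0.958, so the KO value rests on those livers. Hspd1 and Hspe1, which share their upstream bases, had r = 0.242 in Het (rho = 0.6, exact permutation p = 0.74 and 0.242, adjusted p = 0.868 and 0.605) and r = 0.409 in KO (rho = 0.371, exact permutation p = 0.397 and 0.497, adjusted p = 0.782 and 0.913), and 0.485 and -0.266 without the 2 livers farthest from the median of Hspd1.

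The pairs with the smallest p in Het were Hsp90aa1 with Hspb1 (r = 0.930, rho = 0.829), Hspa8 with Hsph1 (r = 0.940, rho = 0.943) and Hspa8 with Hspd1 (r = -0.924, rho = -0.829). Their exact permutation p for r were 0.00556, 0.00694 and 0.0111 and for rho 0.0583, 0.0167 and 0.0583, all with an adjusted p for r of 0.25, and without 2 livers their r were 0.638, 0.748 and -0.862. Hsph1 with Hspd1 tied with the last of them (r = -0.881, rho = -0.886, exact permutation p = 0.0111 and 0.0333, adjusted p for r of 0.25), with r = -0.824 without 2 livers. In KO they were Hspa1a with Hspb1 (r = 0.839, rho = 0.486), Hspa1b with Hspe1 (r = 0.869, rho = 0.771) and Hspa8 with Dnajb1 (r = 0.855, rho = 0.657). Their exact permutation p for r were 0.0306, 0.0375 and 0.0403 and for rho 0.356, 0.103 and 0.175, all with an adjusted p for r of 0.386, and without 2 livers their r were -0.8, 0.713 and 0.0671, so the first and the last of them rest on those livers.

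The genes whose levels ran most alike with a member were ranked by Pearson r of log2 CPM over the 12 livers after subtracting each group's mean, as a description. For Hspa8 they were Gm15459 (0.962), Tnfrsf11b (0.955) and Gsn (0.938), and for Hsp90aa1 Pkia (0.965), Nprl2 (0.955) and Ephb6 (0.941). For Hspd1 they were Alg5 (0.957), Immt (0.954), which encodes a scaffold of the mitochondrial inner membrane, and Skp1 (0.949). For Hspa1a they were Tifab (0.883), Gdpd1 (0.875) and Ccl3 (0.871). These are the top values of 19350 genes ranked on 12 livers, and no test was made of them.

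The other chaperone genes were described by lists chosen with earlier results of these data known, none of which holds a member. Of 131 further genes tested in 10 lists, 22 were called lower (against 10.2% of all genes) and 9 higher (against 12.2%), with a median log2 fold change of -0.092. The same shares of all genes apply beside every list count over both sexes given below. Some genes stand in more than 1 list.

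Of 20 other genes known as HSF1 targets, 8 were called lower and 1 higher (Dedd2), with a median of -0.238. Those with the smallest p were Chordc1, an HSP90 cochaperone (-0.88, SE 0.113, edgeR adjusted p = 0.000474), Dnaja1, another J-domain protein (-0.93, SE 0.159, adjusted p = 0.00229), and Cacybp (-0.68, SE 0.117, adjusted p = 0.00244). For all 3 every KO liver was below every Het liver, as for 4.64% of all genes. Dnaja1 fell from 166 ± 17.6 CPM (SD, n = 6) in Het to 87.6 ± 22.7 CPM (n = 6) in KO.

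In the HSP70 system, the other HSP70 genes had 2 of 11 called in each direction: Hspa4, an HSP110 relative, was lower (-0.39, SE 0.095, edgeR adjusted p = 0.0132), as was Hspa12a (-0.94, SE 0.239, adjusted p = 0.0166). Hspa1l, the third gene of the HSP70 cluster on chromosome 17, was higher (1.15, SE 0.247, adjusted p = 0.00665) at a very low level, 0.0757 ± 0.0134 CPM in Het and 0.235 ± 0.0822 CPM in KO (SD, n = 6 each), as was Hspa2, known from the testis (1.06, SE 0.291, adjusted p = 0.0241). Of 12 exchange factors and ubiquitin cochaperones, 3 were lower and 0 higher, namely St13 (-0.44, SE 0.0897, adjusted p = 0.00605), which stabilises HSP70 bound to its client, Bag3 (-1.08, SE 0.238, adjusted p = 0.00913) and Sil1 (-0.33, SE 0.104, adjusted p = 0.0389), both exchange factors. J-domain genes had 4 of 36 called lower (Dnaja1, Dnajc11, Dnajb14 and Dnajc22) and 4 higher (Dnajc10, Dnajb12, Dnajc12 and Dnajc16), near the 10.2% and 12.2% of all genes. Those with the smallest p were Dnaja1, Dnajc11 (-0.43, SE 0.0802, adjusted p = 0.00378) and Dnajc10 (0.47, SE 0.0889, adjusted p = 0.00409).

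In the HSP90 system, 6 of 18 genes were called lower and 2 higher. Chordc1 was the first of them. Fkbp5, a cochaperone of the glucocorticoid receptor complex, was higher (1.22, SE 0.239, edgeR adjusted p = 0.00518), and so was Rpap3 (0.71, SE 0.148, adjusted p = 0.00639). Small heat shock protein genes other than Hspb1 had 3 of 8 in the table tested and 0 called by edgeR. Of the 3, 2 had a negative log2 fold change and 1 had an unadjusted p under 0.05, beside 36.1% of all genes. Hspb8 was at 0.47 (SE 0.167, adjusted p = 0.062), Hspb6 at -0.52 (SE 0.275, adjusted p = 0.195) and Cryab at -0.34 (SE 0.228, adjusted p = 0.314). DESeq2 called Hspb8 higher.

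Chaperonin and prefoldin genes of the cytosol had 1 of 15 called lower and 0 higher, beside 10.2% and 12.2% of all genes. The gene called was Tcp1 (-0.40, SE 0.104, edgeR adjusted p = 0.018), with Pfdn6 (-0.37, SE 0.126, adjusted p = 0.052) and Cct2 (0.20, SE 0.0807, adjusted p = 0.103) next. Of 14 other mitochondrial chaperones and proteases, 2 were lower, beside 10.2% of all genes. They were the disaggregase Clpb (-0.55, SE 0.101, adjusted p = 0.00327) and Trap1, the mitochondrial HSP90 (-0.39, SE 0.0978, adjusted p = 0.0146), with Grpel1 next (-0.24, SE 0.0797, adjusted p = 0.0506). Of 14 ER chaperone genes, 4 were lower (with Pdia6 beside the 3 below), all 14 had a negative log2 fold change over both sexes, and the median was -0.525. Canx (-0.61, SE 0.105, adjusted p = 0.00235), Pdia3 (-0.58, SE 0.115, adjusted p = 0.00496) and Hsp90b1 (-0.57, SE 0.12, adjusted p = 0.00674) had the smallest p. DESeq2 called 8 of the 14, beside 5045 of all 19350 genes. Within females edgeR called 1 of the 14 lower and within males 5, beside 5.1% and 2.98% of all genes. Dnajb9 (0.103 in females, -1.55 in males), Creld2 (0.153, -2.02) and Hyou1 (0.0288, -0.884) were above 0 in females. The rest were below 0 in both sexes.

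Of 13 other heat shock factors and regulators of HSF1 tested, edgeR called 0, and DESeq2 called 0 beside 5045 of all 19350 genes. In edgeR 4 had an unadjusted p under 0.05, beside 36.1% of all genes. The 4 were Hsf2bp (0.71, SE 0.286, adjusted p = 0.0936), Hsf2 (-0.39, SE 0.172, adjusted p = 0.126), Hsbp1l1 (0.74, SE 0.334, adjusted p = 0.131) and Hsbp1, a negative regulator of HSF1 (-0.17, SE 0.0795, adjusted p = 0.138).

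**Figure D5:**
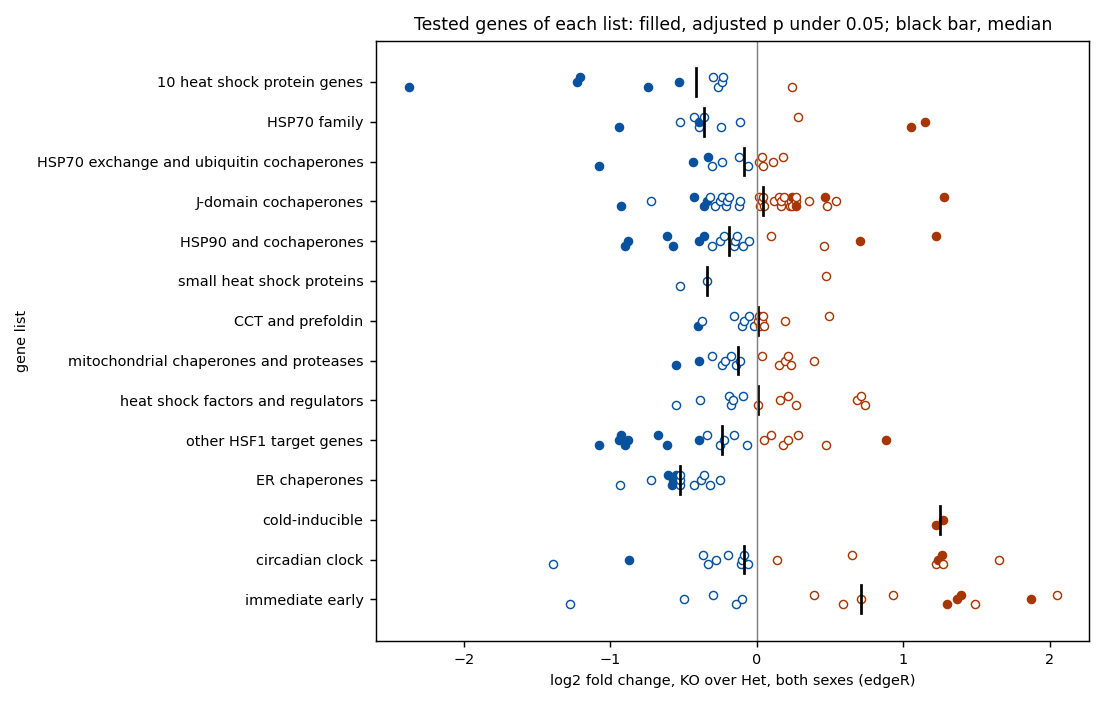
Log2 fold change of KO over Het over both sexes (x axis) for the 10 heat shock protein genes and the tested genes of each list (y axis), blue below 0 and brown above, filled for an adjusted p under 0.05, with a black bar at the median. All 14 ER chaperone genes lie below 0, and the cold-inducible genes lie above 1.

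Other groups of genes moved in the same livers. The lists named here were also chosen with earlier results of these data known. Cirbp and Rbm3, RNA-binding proteins known to rise in the cold, were both called higher, as were 12.2% of all genes. For both, every KO liver was above every Het liver, and the share of all genes with that separation was not counted. Cirbp was at 13.2 ± 3.07 CPM in Het and 30.9 ± 7.07 CPM in KO (SD, n = 6 each), a log2 fold change of 1.23 (SE 0.185, edgeR adjusted p = 0.00113). Rbm3 was at 35.1 ± 6.72 and 85.1 ± 26.3 CPM, a log2 fold change of 1.27 (SE 0.209, adjusted p = 0.00202). Of 15 immediate early genes tested, 4 were higher and 0 lower, namely Ier3 (1.37, SE 0.351, adjusted p = 0.0169), Junb (1.30, SE 0.322, adjusted p = 0.0174), Fosl2 (1.87, SE 0.466, adjusted p = 0.0187) and Fos. Of 17 circadian clock genes, 2 were higher and 1 lower: Hlf (-0.87, SE 0.182, adjusted p = 0.00664), Cry2 (1.27, SE 0.285, adjusted p = 0.0107) and Nfil3 (1.24, SE 0.309, adjusted p = 0.0175). Nfil3 had a log2 fold change of 2.58 in females and -0.11 in males. Whether these groups and the heat shock genes moved together for a shared reason was not tested.

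Markers of several liver cell types moved too. Kupffer cell and macrophage markers had 4 of 7 called higher (Marco, Vsig4, Cd68 and Cd5l) and 0 lower, with a summed level of 32.6 to 106 TPM in Het and 55.0 to 173 TPM in KO. Sinusoidal endothelial markers had 4 of 7 lower, Fcgr2b, Kdr, Clec4g and Oit3, and 0 higher (39.4 to 88.0 and 29.6 to 52.9 TPM), and stellate cell and fibroblast markers 2 of 8 lower, Reln and Lrat, and 0 higher (22.3 to 44.7 and 13.2 to 25.6 TPM). Hepatocyte markers had 2 of 8 lower, Serpina1c and Ttr, and 0 higher, with summed levels of 22200 to 34300 TPM in Het and 28900 to 46200 TPM in KO. Erythroid markers had 1 of 5 tested lower, Alas2. The summed level of the erythroid list was 185 to 778 TPM in Het females and up to 413 TPM in Het males. It was 131 to 371 TPM in KO, so the summed levels of Het and KO overlapped. Neutrophil markers had 1 of 4 tested higher, S100a8, and the summed level of that list also overlapped (1.02 to 7.18 TPM in Het and 3.53 to 7.59 TPM in KO). None of 6 cholangiocyte and 8 lymphocyte markers was called by edgeR, with 0 of either list at an unadjusted p under 0.05, beside 36.1% of all genes. Their summed levels in Het and KO were 14.8 to 30.9 and 9.09 to 28.5 TPM for cholangiocyte markers. For lymphocyte markers they were 0.814 to 3.15 and 0.659 to 1.96 TPM. No marker was at 0 in all 12 livers, and the part of these cell types in the heat shock gene levels was not tested.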

How the data were processed

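The authors isolated total RNA with TRIzol, depleted ribosomal RNA (TruSeq Stranded), sequenced paired reads, and ran nf-core/rnaseq with STAR (2.7.9a) and Salmon (1.10.1, versions from the submitters' processing notes) on GRCm39 with GENCODE M34. The deposited tables hold estimated counts per gene, of which 12% are not whole numbers, as well as scaled and length-scaled expected counts rebuilt from TPM, and TPM values that sum to 1000000 in each liver. How the counting used strand is not given in the sources used here, so reads of genes that overlap on opposite strands may be shared.

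Estimated counts were rounded after the filter (5 reads or more, in 3 livers or more), scaled by TMM and fitted with edgeR 4.0.16 (R 4.3.3, robust quasi-likelihood, prior count 2) on all 12 livers with 4 group means, as the study fitted genotype, sex and their interaction together. The SE is the log2 fold change divided by the root of F. CPM values use TMM library sizes. DESeq2 1.42.0 and limma 3.58.1 on log2(TPM + 1) and log2(TPM + 0.1) were alternatives, with other scalings, filters, count tables, the sexes fitted alone and each mouse left out. The code was tested on simulated data. Correlations used exact two-sided permutation of pairings (scipy 1.17.1).

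Groups came from the labels. The members and gene lists were chosen with earlier results of these data known. Genes named are the 10 members, Xpa and Ercc8, Cirbp and Rbm3, the 3 of each chaperone, clock and immediate early list with the smallest p, and the 3 most alike to Hspa1a, Hspa8, Hsp90aa1 and Hspd1. Other names that fill a count of 5 or fewer were added after their values were seen. Locations and upstream bases come from GRCm39 with GENCODE M39, not the authors' M34, so gene spans may differ slightly from theirs. Windows count a 2-unit or 3-unit element only when every letter matches.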

Additional observations from a re-analysis of the deposited data

Results flagged for a closer look

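Hsf1 in KO_F_108 was at 21.4 CPM, far above the other 5 KO livers, of which the next was at 15.6 CPM and the lowest at 13.9 CPM. The gap to the next liver was 0.773 of the whole range of the 6 KO livers, above Dixon's 95% critical value for 6 samples. Of the 20 sets of 6 livers tested (10 genes in Het and in KO), this was the only one to pass, and chance passes about 1 in 20. KO_F_108 also had the lowest Hspa1b (0.558 CPM) and the lowest Hspd1 (229 CPM) of the 12 livers. Without KO_F_108 the log2 fold change of Hsf1 over both sexes was 0.14 (edgeR adjusted p = 0.325).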

How the results depend on the processing

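Over both sexes, 4 to 6 of the 10 genes were called without any single mouse and 6 by DESeq2, and Hspa1b, Dnajb1 and Hspb1 were called lower in every alternative run. With no filter on low counts, 3 genes were called, since Hsp90aa1 and Hsph1 (adjusted p = 0.0504) were lost, and more genes were then tested. Hsp90aa1 was also lost with at least 10 reads in every liver and with the older quasi-likelihood method, where the cause was not tested. Hspa1a has no value under the stricter filter. In females, the count of calls was 2 with DESeq2, 1 with limma on log2(TPM + 0.1) and 0 to 1 without a mouse. In males it was 5 with DESeq2, 2 with RLE scaling, at least 10 reads in every liver, unrounded counts, no robust estimation or the males alone (Dnajb1 and Hsph1), 0 with library size only, limma on log2(TPM + 1), no filter or the older method, and 0 to 3 without a mouse. DESeq2 also called more of all 19350 genes lower than edgeR did. It called 2357 against 1966 over both sexes, 1513 against 986 in females and 1003 against 576 in males. The cause of these moves of the counts was not tested.

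Directions that turned were those of values near 0. Hspa1a over both sexes was at 0.16 without Het_F_126 (-0.41 to 0.16 over the 12 mice left out), and in females at -0.28 to 0.86 without a mouse. Its sum with Hspa1b, at -1.75 in females, is a different quantity and not a turn of Hspa1a. Hspa8 in females was at -0.0469 with library size only, -0.0216 and -0.0215 with limma on log2(TPM + 0.1) and log2(TPM + 1) and -0.16 to 0.15 without a mouse. Hsf1 in males was at -0.0577 to 0.126 without a mouse. On the log2(TPM + 1) scale the correlation of Hspd1 with Hspe1 in KO turned to -0.0871. No paired analysis was possible because every mouse has a number of its own and no litter is given. Depth limits Hspa1a most, with 8.55 counts in its lowest liver.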
